A study of Mus musculus with 9 samples.

Results

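The data below concern 9 mouse genes that are used as markers or signals of regenerating intestinal epithelium: Clu, Ly6a, Anxa1, Anxa3 and Msln, which mark revival stem cells or fetal-like epithelium, Areg, Ereg and Nrg1, which encode ligands of the ErbB receptors, and Il33, which encodes an alarmin. They were listed by name and matched by Ensembl identifier, and the match used no measured value. The list itself was drawn up with earlier results of these data known. All 9 were among the 31685 genes with values, and all 9 had at least 1 FPKM (fragments per kilobase of exon, scaled to the library total) in at least 3 of the 9 mice, the filter for testing that 13056 genes passed. Msln and Nrg1, the members nearest to this filter, reached 1 FPKM in at least 1 mouse of every group.

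RNA came from the jejunum of wild-type male C57BL/6J mice aged 6 to 8 weeks. The control group was 3 mice labelled as without treatment. The TAI group was 3 mice given 12 Gy of X-rays to the whole abdomen (total abdominal irradiation) at 75 cGy/min and PBS. The TAI/IVIg group was 3 mice given the same irradiation and 500 mg/kg of intravenous immunoglobulin, a preparation of pooled human IgG, within 1 h and again every 3 days. Tissue of the irradiated mice was taken on day 3 after irradiation, and whether a repeat dose came before it is not stated. When the tissue of the control mice was taken, and whether they were injected, is not given in the sources used here.

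When radiation empties the crypts of dividing stem cells, the surviving epithelium is known to rebuild them through a transient state. In that state cells with high Clu or with fetal genes such as Ly6a (Sca-1) and the annexins appear, and the transcriptional coactivator YAP is active. EGF-family ligands released by epithelium, stroma and leukocytes feed this repair through the ErbB receptors, and interferon-gamma and other inflammatory signals are known to induce Ly6a.

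The library totals behind the FPKM values ran from 16284531 to 18244739 reads, and the ranges of the 3 groups overlapped. Genes above 0 numbered 22111 to 24874 in a library, with the lowest number in TAI/IVIg mouse 3. The labels call the material epithelial tissue. The epithelial marker Epcam was at 870 to 1748 FPKM, but the smooth muscle gene Myh11 was at 10.99 to 134 FPKM, so muscle transcripts were present beside epithelial ones. Summed levels of 10 lymphoid follicle genes (B cell, follicle and follicle-associated epithelium genes, chosen after their values were seen) stood apart in 1 mouse of each group: control mouse 3 (552 FPKM), TAI mouse 3 (211) and TAI/IVIg mouse 2 (230), against 3.15 to 86.5 FPKM in the other 6 mice. In bulk tissue of this kind, fewer cells of a type and less RNA per cell cannot be told apart.

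In TAI against control, 2 of the 9 members rose (Anxa1 and Il33), 2 fell (Ly6a and Areg) and 5 did not pass the test (limma on log2(FPKM + 1), Benjamini-Hochberg adjusted p under 0.05 over all genes tested). Of all genes tested, 34.9% were called in this comparison, 8.81% as higher and 26.1% as lower, so 4 of 9 is near the share for genes in general. The median log2 fold change of the members was 0.26, and that of all genes tested was -0.24. The members' median was -0.09 without control mouse 2 and 0.54 with library medians set equal, where that of all genes was 0.05. In TAI/IVIg against TAI no member was called, as no gene was among the 13056. Against control, 1 member rose in TAI/IVIg (Il33) and 3 fell (Ly6a, Areg and Ereg), where 46.4% of all genes were called, 9.06% as higher and 37.4% as lower. All 3 TAI mice lay above all control mice for 2 members and below them for 2 (15.1% and 38.0% of all genes), and all 3 TAI/IVIg mice lay above the control mice for 1 and below them for 4 (11.5% and 44.3%). Leaving out single mice gave 1 to 4 called members in TAI against control. The count was 1 without TAI mouse 1, and 2 without control mouse 1, control mouse 2 or TAI mouse 2.

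**Figure D1:**
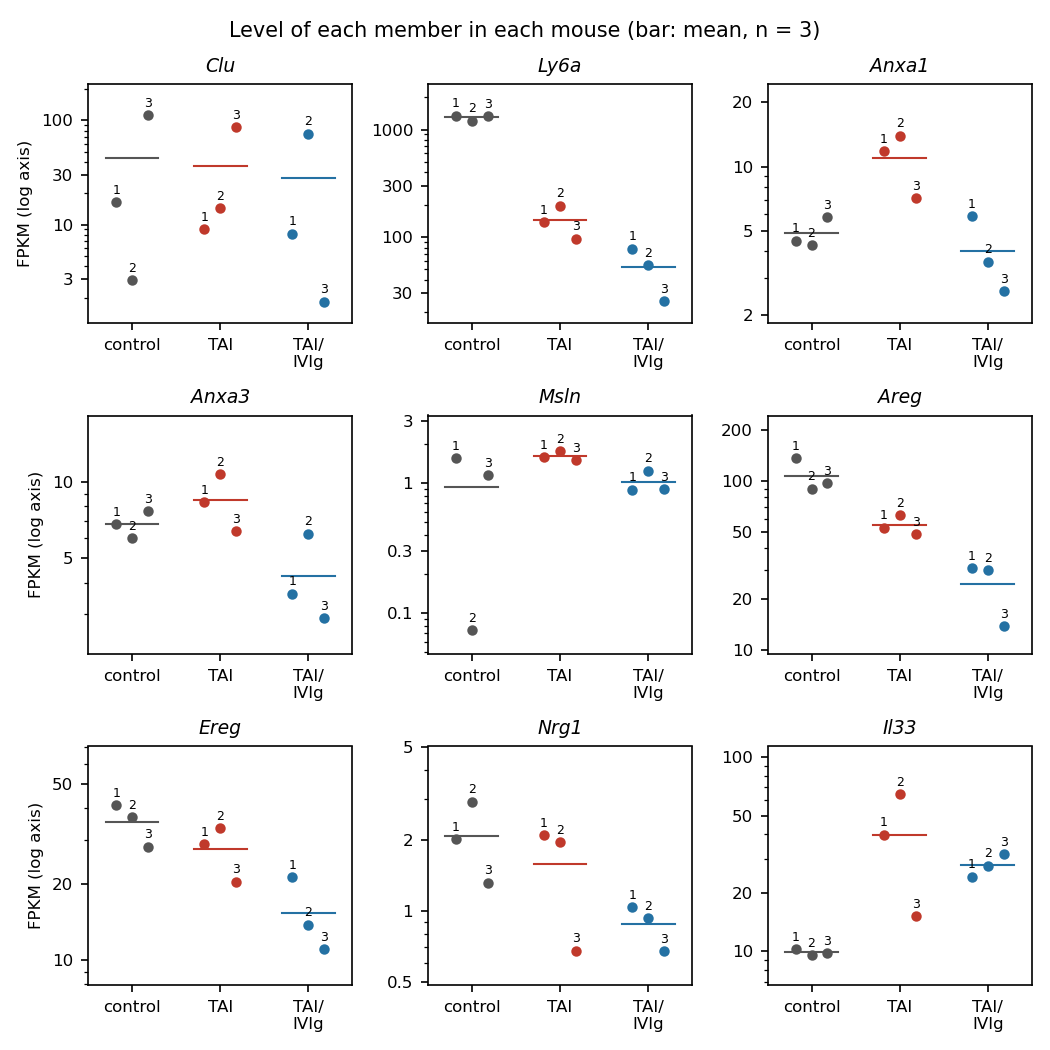
FPKM of each of the 9 members (log axis) in the control, TAI and TAI/IVIg mice, with the mouse number at each point and a bar at the group mean (n = 3). Ly6a and Areg are highest in all control mice and lowest in all TAI/IVIg mice, Anxa1 is highest in the TAI mice, and Clu spans a wide range within every group.

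**Figure D2:**
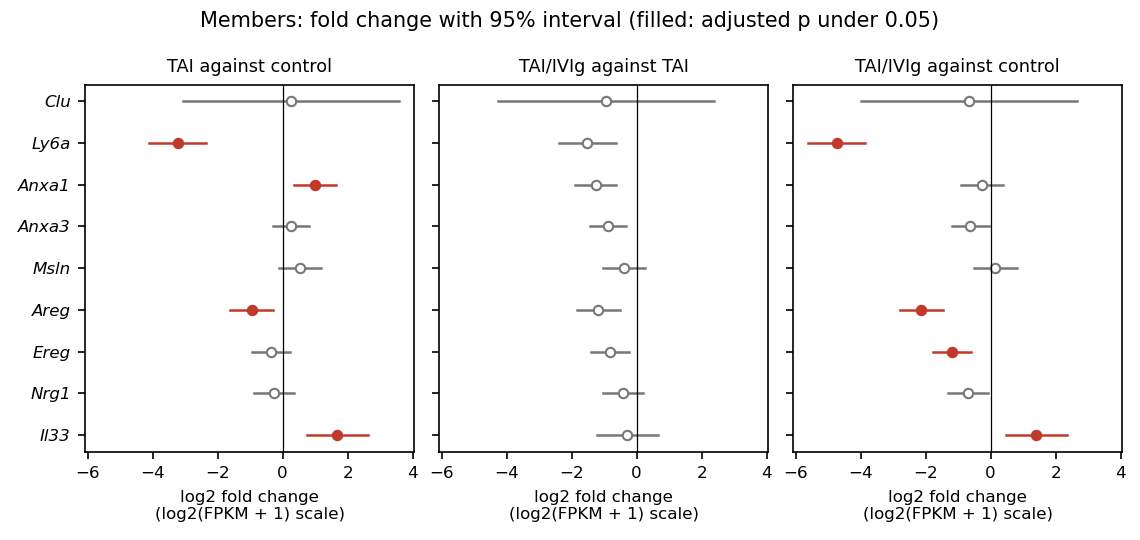
log2 fold change of each member on the log2(FPKM + 1) scale with its 95% confidence interval from the fit to all 9 mice, for the 3 comparisons, with filled points where the adjusted p was under 0.05. The filled points are Ly6a, Anxa1, Areg and Il33 on the left and Ly6a, Areg, Ereg and Il33 on the right, and none in the middle.

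Ly6a encodes the GPI-anchored surface protein Sca-1, a marker of fetal-like epithelium after injury that lymphocytes, endothelium and stroma also carry. It was the most abundant member in control jejunum, and it fell after irradiation. Its level was 1345, 1214 and 1333 FPKM in control mice 1, 2 and 3, 138, 196 and 96.9 FPKM in the TAI mice, and 78.0, 54.5 and 25.2 FPKM in the TAI/IVIg mice. The 3 groups did not overlap, and the control mice differed among themselves by 1.11-fold. Mean FPKM was 9.03 times lower in TAI than in control (1297 ± 72.7 against 144 ± 49.8, SD, n = 3 each), a log2 fold change of -3.22 (SE 0.39, limma adjusted p = 0.00099). TAI/IVIg mice were 24.7 times lower than control mice (log2 fold change -4.74, limma adjusted p = 0.00015). Both calls held in all 21 alternative analyses. The values rested on 509 to 28170 reads. Ly6a belongs to a cluster of related Ly6 genes on chromosome 15 (its own gene at chr15:74994877-74998031, minus strand, GRCm38), and how reads shared between such relatives were assigned is not given in the sources used here.

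Anxa1 and Anxa3 encode annexins, proteins that bind membrane phospholipids in the presence of calcium. Annexin A1 is also released and acts on formyl peptide receptors to limit inflammation. Anxa1 was at 4.49, 4.28 and 5.77 FPKM in the control mice, 11.8, 13.96 and 7.08 FPKM in the TAI mice and 5.83, 3.58 and 2.60 FPKM in the TAI/IVIg mice. Every TAI mouse lay above every mouse of the other groups, and the control and TAI/IVIg ranges overlapped. The mean was 2.26 times higher in TAI than in control (10.96 ± 3.53 against 4.85 ± 0.81 FPKM, log2 fold change 1.00, SE 0.28, limma adjusted p = 0.025). This call was lost without control mouse 1 (limma adjusted p = 0.059), control mouse 2 (0.079), TAI mouse 1 (0.090) or TAI mouse 2 (0.083), and with no filter on low genes (0.062), and the fold change stayed between 0.81 and 1.43 in all 21 alternatives. Anxa3 did not pass the test in any of the 3 comparisons with all mice. Its level was 6.82, 6.00 and 7.66 FPKM in control mice, 8.30, 10.7 and 6.39 in TAI mice, and 3.62, 6.25 and 2.90 in TAI/IVIg mice, so the control range overlapped both others. The 95% interval of its difference between TAI and control ran from -0.31 to 0.82 on the log2 scale, around a fold change of 0.26 that was between 0.09 and 0.58 in the alternatives. Between TAI/IVIg and control the log2 fold change was -0.62 (limma adjusted p = 0.069). It passed the threshold without TAI/IVIg mouse 2 (-0.88, limma adjusted p = 0.012) and without the 3 mice high in follicle genes (-0.80, 0.026), and was -0.13 with library medians set equal (0.65), -0.14 with quantile normalization (0.62) and -0.25 with voom median-ratio sizes (0.46).

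Clu encodes clusterin, a secreted chaperone that marks the revival stem cells of the injured crypt and that follicular dendritic cells of lymphoid tissue also make. It differed more between mice of a group than between groups. The control mice were at 16.5, 2.95 and 113 FPKM, the TAI mice at 9.08, 14.3 and 86.3 FPKM and the TAI/IVIg mice at 8.19, 74.5 and 1.82 FPKM. The highest mouse was 38.2 times the lowest in control, 9.50 times in TAI and 40.9 times in TAI/IVIg. The highest mouse of each group was the mouse with the highest summed level of follicle genes, as given above. The same mice were also the highest of their groups in summed macrophage markers. These were at 334 FPKM in control mouse 3, 296 in TAI mouse 3 and 289 in TAI/IVIg mouse 2, against 69.2 to 178 in the other mice. The log2 fold change of TAI against control was 0.26 with a 95% interval from -3.06 to 3.58 (limma adjusted p = 0.90), so a difference of several fold in either direction was not detectable. It was -0.90 without control mouse 2, -0.68 without TAI mouse 3 and, without the 3 mice high in follicle genes, 0.58 (limma adjusted p = 0.64). The part of lymphoid tissue or of macrophages in these Clu levels was not tested.

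**Figure D3:**
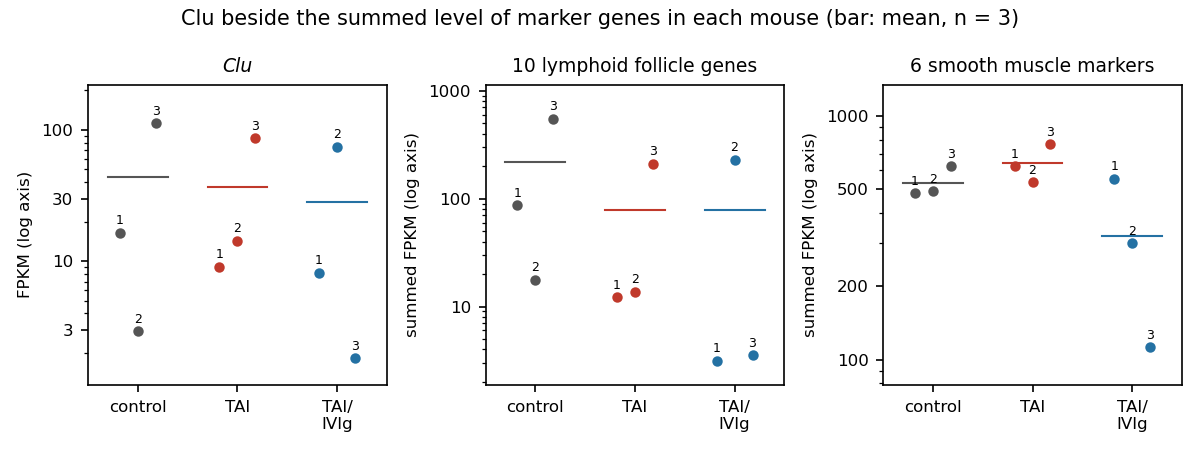
FPKM of Clu (left), summed FPKM of 10 lymphoid follicle genes (middle) and summed FPKM of 6 smooth muscle markers (right) on log axes in each mouse, with mouse numbers and group means (n = 3). Control mouse 3, TAI mouse 3 and TAI/IVIg mouse 2 are the highest of their groups in the left and middle panels, and TAI/IVIg mouse 3 is the lowest of all mice in smooth muscle markers.

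Msln encodes mesothelin, a surface protein of mesothelium that is re-expressed in fetal-like and malignant epithelium. It was the least abundant member in control mice, at 1.56, 0.074 and 1.15 FPKM in control mice, 1.58, 1.76 and 1.503 FPKM in TAI mice and 0.89, 1.25 and 0.90 FPKM in TAI/IVIg mice. Control mouse 2 had 4 reads and the other mice 46 to 88 reads. The log2 fold change of TAI against control was 0.53 (95% interval -0.12 to 1.18, limma adjusted p = 0.18). It was 0.16 without control mouse 2, 0.82 with library medians set equal, 1.27 with a pseudocount of 0.1 and 1.61 and 1.92 with voom (library totals and median-ratio sizes), and passed the threshold in none of its alternatives. The 7 mesothelial markers summed to 1.66 FPKM in control mouse 2 against 4.10 and 5.16 in the other control mice, and to 0.47 in TAI/IVIg mouse 2. Of these 7 markers, Wt1 was at most 0.14 FPKM in every mouse, while 2 others passed the filter for testing. The part of mesothelium in the Msln values was not tested.

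Areg, Ereg and Nrg1 encode growth factors made as membrane proteins and shed by proteases. Amphiregulin (Areg) binds EGFR, epiregulin (Ereg) binds EGFR and ERBB4, and neuregulin 1 (Nrg1) binds ERBB3 and ERBB4. What unites them is the EGF-like module that contacts the receptor and is held by 6 cysteines. The coding stretch from the first to the last of these cysteines is shown for each, since it is the part of the transcript that makes these genes ligands. Sequences are from GENCODE M21 transcripts on GRCm38, 5′ to 3′, with the 6 cysteine codons in capitals. The stretch spans exons 3 and 4 of Areg (chr5:91143614-91144364, plus strand) and exons 3 and 4 of Ereg (chr5:91088496-91089111, plus strand). Nrg1 has a pair of versions that differ after the fifth cysteine. The first (chr8:31837698-31849398, minus strand) is in 6 of 9 basic coding transcripts, and the second (chr8:31838298-31849398) is in the other 3.
Areg: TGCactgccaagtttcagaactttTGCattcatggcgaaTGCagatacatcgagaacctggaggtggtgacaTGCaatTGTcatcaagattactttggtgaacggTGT
Ereg: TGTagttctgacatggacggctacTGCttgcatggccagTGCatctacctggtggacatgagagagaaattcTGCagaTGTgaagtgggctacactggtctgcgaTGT
Nrg1, first version: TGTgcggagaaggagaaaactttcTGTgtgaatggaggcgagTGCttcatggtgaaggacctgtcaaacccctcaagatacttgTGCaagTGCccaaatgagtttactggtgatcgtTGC
Nrg1, second version: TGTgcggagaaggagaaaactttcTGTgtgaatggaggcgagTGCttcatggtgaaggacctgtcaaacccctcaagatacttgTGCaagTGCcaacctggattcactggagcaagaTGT

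Areg and Ereg are neighbours on chromosome 5 (chr5:91139599-91148432 and chr5:91074622-91093646, both on the plus strand), 45952 bases apart with 0 annotated genes between them, while Nrg1 lies on chromosome 8 (chr8:31814551-32884029, minus strand). FPKM values are per gene and cannot tell the Nrg1 versions apart.

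Areg fell in both irradiated groups against control. It was at 136, 90.3 and 97.0 FPKM in the control mice, 53.1, 62.6 and 48.5 in the TAI mice and 30.7, 29.7 and 13.9 in the TAI/IVIg mice. The 3 groups did not overlap. The mean was 1.97 times lower in TAI than in control (54.8 ± 7.19 against 108 ± 24.6 FPKM), a log2 fold change of -0.95 (SE 0.29, limma adjusted p = 0.034). It was 4.35 times lower in TAI/IVIg than in control (log2 fold change -2.13, limma adjusted p = 0.00097). The call in TAI against control was lost in 11 of 21 alternatives. These were library medians set equal (log2 fold change -0.66, limma adjusted p = 0.13), quantile normalization (0.077), voom with median-ratio library sizes (0.11), no filter (0.081), the fit without the 3 mice high in follicle genes (0.15), and the fits without control mouse 1 (0.096), 2 (0.056) or 3 (0.069) or TAI mouse 1 (0.097), 2 (0.053) or 3 (0.093). The fold change was negative in all of them. The call in TAI/IVIg against control held in all 21.

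Ereg was at 41.1, 36.8 and 28.2 FPKM in control mice, 28.7, 33.4 and 20.4 in TAI mice and 21.3, 13.8 and 11.05 in TAI/IVIg mice. Neighbouring groups overlapped, and TAI/IVIg and control did not. The log2 fold change was -0.36 in TAI against control (95% interval -0.95 to 0.23, limma adjusted p = 0.31) and -1.18 in TAI/IVIg against control (limma adjusted p = 0.0067, mean 2.30 times lower). The latter was lost with library medians set equal (0.11) and with voom median-ratio sizes (0.077). Nrg1, which stroma is known to make in the injured gut, was at 2.03, 2.93 and 1.32 FPKM in control mice, 2.11, 1.96 and 0.68 in TAI mice and 1.04, 0.93 and 0.68 in TAI/IVIg mice. TAI overlapped both other groups. The log2 fold change was -0.28 in TAI against control (limma adjusted p = 0.45, and near 0 without TAI mouse 3 or with library medians set equal) and -0.69 in TAI/IVIg against control (95% interval -1.30 to -0.07, limma adjusted p = 0.065). The latter passed the threshold with a replicate block (0.021), in the fit of the 6 mice compared (0.048), without the 3 mice high in follicle genes (0.024), without control mouse 3 (0.046) and without TAI mouse 3 (0.029), and in no other alternative. With the block in the 6 mice compared the adjusted p was 0.056. The fold change shrank to -0.20 with library medians set equal (limma adjusted p = 0.64) and to -0.30 with quantile normalization (0.47). It grew to -1.11 with a pseudocount of 0.1 (limma adjusted p = 0.069) and to -1.19 with voom on library totals (0.063).

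Egfr, Erbb2 and Erbb3 rose in TAI against control, all 3 of the receptor genes tested, and all 3 calls held in all 21 alternatives. Erbb3, the partner receptor that binds neuregulins and has little kinase activity of its own, rose from 22.9, 21.3 and 18.9 FPKM in control mice to 95.8, 94.3 and 82.9 FPKM in TAI mice, with 117, 90.1 and 99.98 FPKM in TAI/IVIg mice. The mean was 4.32 times higher in TAI than in control (log2 fold change 2.06, SE 0.14, limma adjusted p = 0.00013). Egfr, the receptor of amphiregulin and epiregulin, was at 1.92, 2.32 and 1.82 FPKM in control mice, 8.32, 7.88 and 6.19 in TAI mice and 8.25, 4.40 and 4.73 in TAI/IVIg mice, a 3.69-fold higher mean in TAI than in control (log2 fold change 1.48, limma adjusted p = 0.0019). Erbb2, the receptor without a ligand of its own, rose 1.89-fold from 12.1 ± 0.80 to 22.8 ± 0.95 FPKM (log2 fold change 0.87, limma adjusted p = 0.0016). No irradiated mouse overlapped the control mice for any of them. None of the 3 was called in TAI/IVIg against TAI (log2 fold changes -0.35, 0.23 and 0.16 for Egfr, Erbb2 and Erbb3). Erbb4 had 0 or 1 read in each mouse and was not tested.

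Of the 8 other ErbB ligands, 3 passed the filter. Tgfa, an EGFR ligand, rose 1.48-fold in TAI against control (4.24 ± 0.79 to 6.26 ± 0.23 FPKM, log2 fold change 0.48, limma adjusted p = 0.025), a call held in 15 of 21 alternatives and in 4 of the 9 that left out a mouse, where the adjusted p ran from 0.012 to 0.095. Btc, another EGFR and ERBB4 ligand on chromosome 5, was at 4.77 ± 0.19, 4.42 ± 1.81 and 1.94 ± 0.84 FPKM in the 3 groups and was lower in TAI/IVIg than in control (log2 fold change -1.01, limma adjusted p = 0.018). Hbegf was at 7.61 ± 4.48, 7.04 ± 1.54 and 8.09 ± 2.24 FPKM and was not called in any comparison. Egf, Epgn, Nrg2, Nrg3 and Nrg4 were below the filter, each under 0.87 FPKM in every mouse. In a list of 19 genes of ligand shedding and ErbB feedback, 3 of the 18 tested rose in TAI against control and none fell, with a median log2 fold change of 0.10 against -0.24 for all genes tested. They were Errfi1 (log2 fold change 1.47, limma adjusted p = 0.0042), an inhibitor of the receptors that their own signal induces, Dusp6 (1.02, 0.0084), a phosphatase of ERK, and Adam10 (0.42, 0.023), a sheddase. The count for this list was 7 with library medians set equal and 1 without the 3 mice high in follicle genes.

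**Figure D4:**
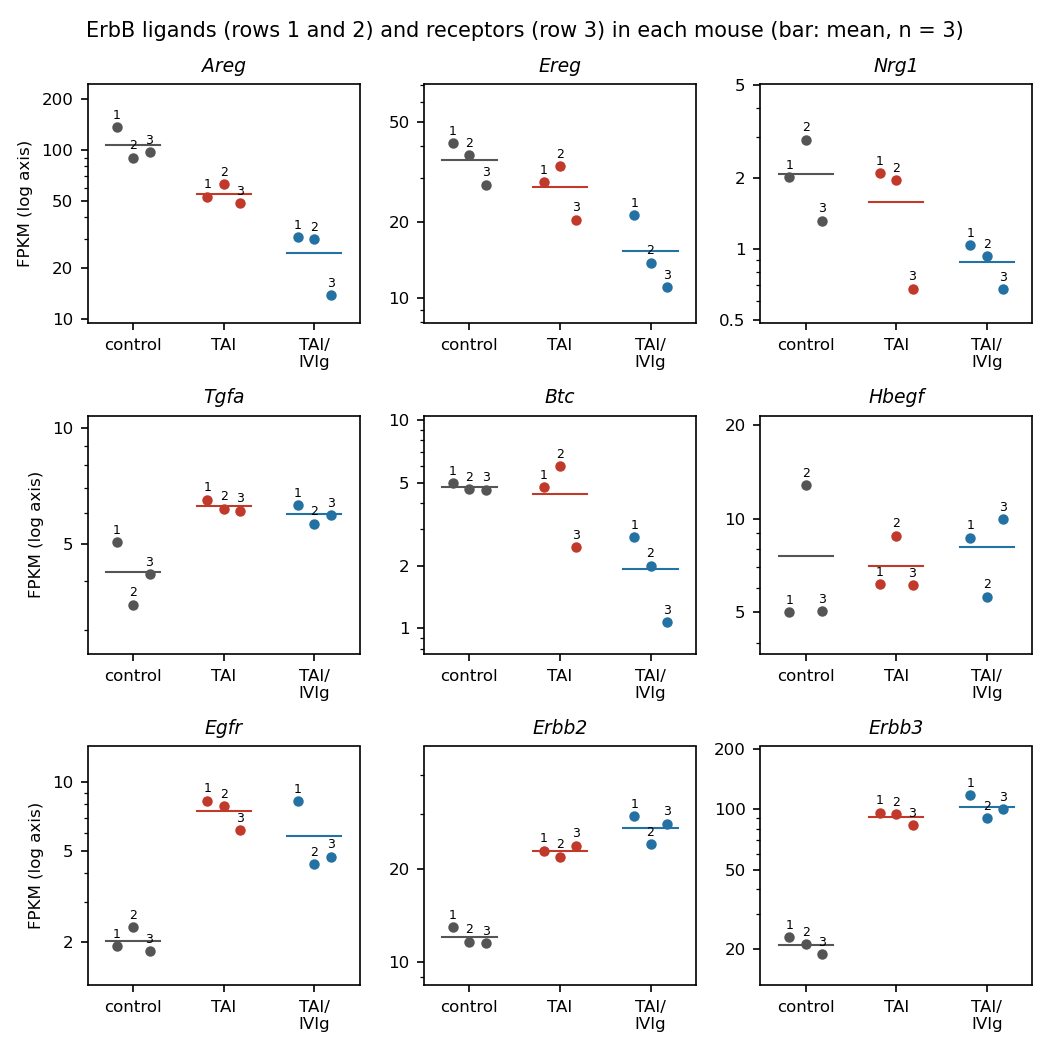
FPKM (log axes) of 6 ErbB ligands (upper rows) and 3 receptors (lower row) in each mouse, with mouse numbers and group means (n = 3). Egfr, Erbb2 and Erbb3 are higher in all 6 irradiated mice than in all control mice, while Areg is lower in all 6.

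Il33 encodes an alarmin that is stored in the nucleus of epithelial, endothelial and stromal cells and signals through ST2 (Il1rl1) once released. It rose after irradiation. The control mice were at 10.3, 9.61 and 9.79 FPKM, the TAI mice at 39.96, 64.5 and 15.2 FPKM and the TAI/IVIg mice at 24.3, 27.7 and 31.8 FPKM. All 6 irradiated mice lay above the control mice, which differed among themselves by 1.07-fold, whereas the TAI mice differed by 4.25-fold and spanned the TAI/IVIg range. The mean was 4.03 times higher in TAI than in control (39.9 ± 24.7 against 9.89 ± 0.35 FPKM, log2 fold change 1.69, SE 0.41, limma adjusted p = 0.014), and 2.82 times higher in TAI/IVIg than in control (log2 fold change 1.40, limma adjusted p = 0.023). The first call was lost without TAI mouse 1 (0.057). The second was lost without control mouse 2 (0.058), control mouse 3 (0.061) or TAI/IVIg mouse 3 (0.068) and with no filter (0.057). TAI/IVIg and TAI differed by -0.29 on the log2 scale, with a 95% interval from -1.23 to 0.65 (limma adjusted p = 0.76). The receptor gene Il1rl1 was at 3.47 to 13.5 FPKM over the 9 mice and was not called in any comparison, nor was Fpr2, a receptor of annexin A1, at 0.54 to 2.66 FPKM.

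In TAI/IVIg against TAI, which shares the TAI mice with the first comparison, all 9 members had a negative log2 fold change, from -0.29 (Il33) to -1.52 (Ly6a), where 69.6% of all genes tested were below 0. The value turned positive for Clu without TAI mouse 3 (0.008) or TAI/IVIg mouse 3 (0.145) and for Il33 without TAI mouse 2 (0.16). The median of the members was -0.88 and that of all genes -0.13. Before adjustment, 5 members were lower at the 0.05 level of the limma test, with log2 fold changes of -1.52 for Ly6a, -1.26 for Anxa1, -1.19 for Areg, -0.88 for Anxa3 and -0.82 for Ereg. Of all genes 11.2% were lower at that level (12.9% in either direction). The TAI/IVIg mice lay wholly below the TAI mice for 5 members (Ly6a, Anxa1, Anxa3, Areg and Msln), which was so for 16.1% of all genes, and above them for none, against 3.09% of all genes. No member passed the adjusted threshold (limma adjusted p = 0.35 for each of the first 5, with a range over their alternatives from 0.065 to 0.98), and voom on the recovered reads called no gene either. With no filter 4 genes were called and with the replicate block 3, none of them a member. The lowest values came without TAI/IVIg mouse 1 and the highest without TAI/IVIg mouse 3. In the same comparison, all 8 fibroblast and all 6 smooth muscle markers tested had negative log2 fold changes, with medians of -0.996 and -1.21, and 7 and 6 of them had an unadjusted p under 0.05. All 8 endothelial markers (median -0.59, 7 without overlap between the groups) and all 3 neutrophil markers tested (median -0.85, 3 without overlap) were lower as well, 3 and 1 of them at that unadjusted level. The summed endothelial markers were at 41.6, 45.7 and 28.2 FPKM in the TAI/IVIg mice against 50.1 to 72.98 FPKM in the TAI mice. The summed fibroblast markers were at 73.6, 56.3 and 26.3 FPKM in the TAI/IVIg mice against 105 to 126 FPKM in the TAI mice. The summed smooth muscle markers were at 554, 302 and 113 FPKM against 536 to 765 FPKM. The 7 epithelial markers had a median of -0.001 and summed to 4320 to 5197 FPKM against 4432 to 4798 FPKM. Other leukocyte markers did not share the direction of the neutrophil markers. Of 4 T cell markers tested, 3 were higher and 1 lower (median log2 fold change 0.085). Of 8 macrophage markers, 2 were higher and 6 lower (median -0.26). None of these T cell and macrophage markers had an unadjusted p under 0.05. The part of stromal, endothelial and leukocyte content in the lower member levels was not tested. In TAI/IVIg against control, 4 of the 8 fibroblast markers fell and none rose, where 37.4% of all genes were called as lower. In that comparison 0 of 6 smooth muscle, 1 of 8 endothelial, 1 of 8 macrophage and 2 of 3 neutrophil markers fell. Of the 7 epithelial markers, 3 fell and 2 rose.

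Other genes used as marks of the regenerating state did not move as a block after irradiation. Of a list of 24 further regeneration and fetal-like markers, 20 were tested in TAI against control, of which 3 rose, 3 fell and 14 did not pass. The share called, 30%, was near the 34.9% of all genes. The median log2 fold change was 0.09, and that of all genes tested was -0.24. Anxa8, an annexin of stratified epithelium, was at 0.37, 0.060 and 0.37 FPKM in control mice and 7.29, 13 and 2.80 FPKM in TAI mice, with 1.15, 2.16 and 0.92 in TAI/IVIg mice (log2 fold change of TAI against control 2.60, limma adjusted p = 0.0027). Sox9, a transcription factor of crypt progenitors (1.08, 0.046), also rose, in 12 of the 20 alternatives that tested it. The 3 that fell were Ly6d (-2.37, 0.0071), a relative of Ly6a, the keratin Krt7 (-1.57, 0.015) and the calcium-binding S100a6 (-0.99, 0.0058). The number called was 10 without TAI/IVIg mouse 1 and 3 without the 3 mice high in follicle genes. In TAI/IVIg against TAI all 20 had a negative log2 fold change, 9 at an unadjusted p under 0.05, and none was called. Of all genes tested, 69.6% were below 0 in that comparison and 11.2% were lower at that unadjusted level.

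Of 22 YAP target genes listed, 18 were tested in TAI against control, where 11 rose, none fell and 7 did not pass. Of all genes tested, 8.81% were called as higher. The median log2 fold change was 0.80 for this list and -0.24 for all genes tested. Nt5e, which encodes the ecto-nucleotidase CD73, was the furthest, at 1.54, 1.29 and 2.69 FPKM in control mice, 51.0, 24.7 and 72.7 FPKM in TAI mice and 65.0, 29.8 and 49.9 FPKM in TAI/IVIg mice (log2 fold change 4.05, limma adjusted p = 0.00049). The matricellular genes Ccn1 (1.69, 0.0015) and Ccn2 (1.64, 0.0044), which are widely read as YAP targets, rose as well. The count was 7 without control mouse 2, 7 without TAI mouse 1 and 7 without the 3 mice high in follicle genes. None of the YAP target genes was called in TAI/IVIg against TAI. At an unadjusted p under 0.05, 8 of the 18 were lower, as were 11.2% of all genes. Of 12 Hippo pathway genes tested, Yap1 (0.57, 0.043) and its DNA-binding partner Tead1 (0.47, 0.047) rose in TAI against control. Nf2 (-0.59, 0.013), an upstream inhibitor of YAP, fell, and the other 9 did not pass. The share called, 25%, was below the 34.9% of all genes. By direction 6 of the 12 were higher and 6 lower, with a median log2 fold change of -0.06. The call of Yap1 held in 11 of 21 alternatives and that of Tead1 in 9 of 20. Each held in 2 of the 9 fits that left out a mouse. Of the 8 other annexins, Anxa11 rose (0.40, 0.031), Anxa13, an annexin of enterocytes, fell (-0.79, 0.024) and 6 did not pass.

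**Figure D5:**
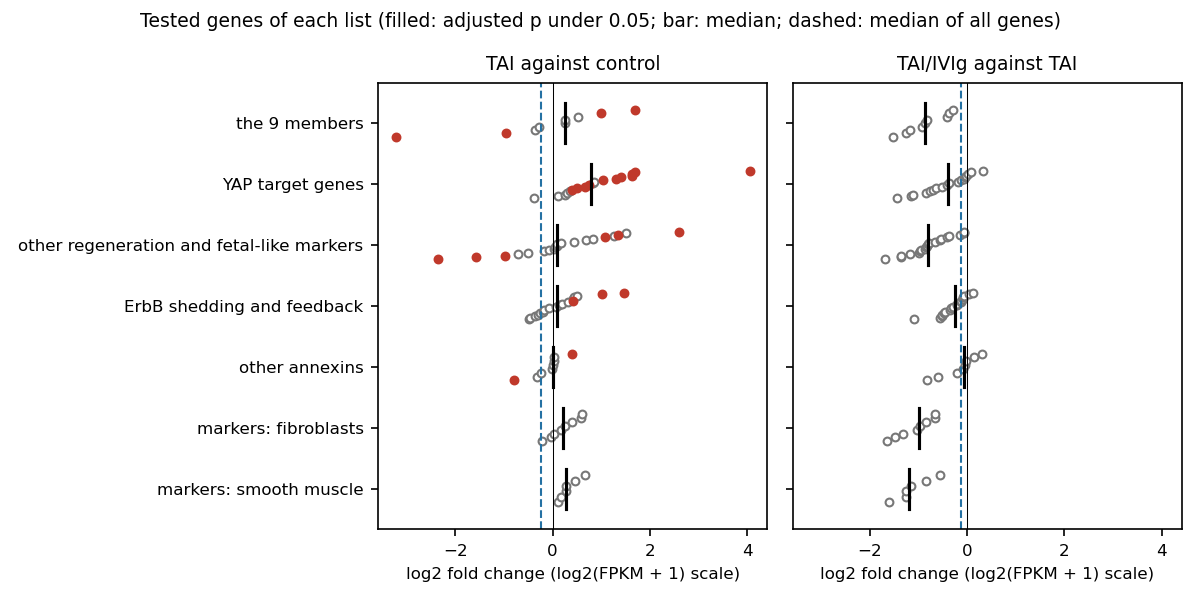
log2 fold changes on the log2(FPKM + 1) scale of the tested genes of 7 lists in TAI against control (left) and TAI/IVIg against TAI (right), each point a gene, filled where the adjusted p was under 0.05, with a bar at the median of the list and a dashed line at the median of all genes tested. The YAP target genes lie mostly to the right of 0 on the left (median 0.80), and on the right the members, the other regeneration markers and the fibroblast and smooth muscle markers lie to the left of 0 with no filled point.

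Signals and cell types that bear on the members gave mixed counts in TAI against control. Ifng had at most 0.18 FPKM in any mouse. Of 11 interferon-gamma response genes tested, Irf1 rose (0.99, 0.011) and Psmb8 fell (-0.87, 0.016). Of 8 TGF-beta ligands, receptors and targets, 3 rose, among them Skil (1.24, 0.0079) and Smad7 (0.74, 0.032), and Tgfbi (-0.85, 0.0051) fell. Of 4 crypt base stem cell markers tested, Axin2, a Wnt target, rose (0.81, 0.011) and Olfm4, a marker of crypt base columnar cells, fell (-3.03, 0.0084). Of 7 epithelial markers, Cldn7 rose (0.73, 0.013) and Krt19 (-1.91, 0.017) and Krt8 (-0.61, 0.019) fell. Of the markers of other cell types, 0 of 8 fibroblast, 0 of 6 smooth muscle, 0 of 4 T cell, 0 of 2 mesothelial and 0 of 2 type 2 innate lymphoid or mast cell genes were called. The lymphatic endothelial gene Lyve1 (-1.38, 0.0053) was the only called gene of 8 endothelial markers, Cd68 (-0.95, 0.013) of 8 macrophage markers, S100a9 (1.36, 0.016) of 3 neutrophil markers and Gfap (1.02, 0.025) of 5 glial and neuronal markers. In all these pairs the first number is the log2 fold change and the second the limma adjusted p. Among the genes named here that are no members, the calls of Tgfa, Adam10, Sox9, Krt7, Yap1, Tead1, Anxa11, Anxa13, Psmb8, Smad7, Cldn7, Krt19, Krt8, Cd68, S100a9 and Gfap in TAI against control were each lost when at least 1 of the mice was left out, with a limma adjusted p of up to 0.14.

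Sequence upstream of the start was held for 3 members, all called in TAI against control: Anxa1 and Il33, which rose, and Areg, which fell. The 250 bases before each RefSeq start (GRCm38.p6) were searched, and those of Il33 and Areg are shown in the direction of the gene as the pair that moved in opposite directions, with matches on either strand to the TEAD core CATTCC in capitals. TEAD proteins are the DNA-binding partners of YAP. Such a match is a description and not a shown binding site, and 12.6% of the 32851 windows of this length hold one. Anxa1 (chr19:20390672-20390921, minus strand) has 1 match, 236 bases before the start, and this window lies inside the first exon of a longer GENCODE M21 transcript and is not printed. Il33 has a pair of starts, with 1 match each, 131 bases before the first (chr19:29924863-29925112, plus strand) and 107 bases before the second (chr19:29945540-29945789, plus strand). Areg (chr5:91139349-91139598, plus strand) has 0. None of the windows holds an AP-1 match (TGANTCA, in 6.75% of windows) or an interferon-stimulated element (in 2.98% of windows).
Il33, first start: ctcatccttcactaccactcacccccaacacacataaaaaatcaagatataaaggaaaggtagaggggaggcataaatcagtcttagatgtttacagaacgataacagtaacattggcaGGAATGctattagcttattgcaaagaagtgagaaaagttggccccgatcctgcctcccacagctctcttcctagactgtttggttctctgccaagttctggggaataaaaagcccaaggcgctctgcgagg
Il33, second start: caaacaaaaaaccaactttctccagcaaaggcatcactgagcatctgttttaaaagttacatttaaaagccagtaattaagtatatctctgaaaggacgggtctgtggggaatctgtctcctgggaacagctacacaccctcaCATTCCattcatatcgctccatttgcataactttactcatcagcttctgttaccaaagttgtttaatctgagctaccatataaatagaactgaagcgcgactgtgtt
Areg: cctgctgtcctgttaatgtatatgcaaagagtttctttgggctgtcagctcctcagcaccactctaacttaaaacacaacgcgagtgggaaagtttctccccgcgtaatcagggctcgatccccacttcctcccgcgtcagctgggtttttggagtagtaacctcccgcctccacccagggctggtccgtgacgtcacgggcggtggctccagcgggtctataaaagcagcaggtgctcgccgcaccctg

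For each member the genes with the most similar profile over the 9 mice were sought among 12949 named genes, as the smallest root mean square difference of centred log2(FPKM + 1) values. The nearest to Ly6a was Lypd8, another Ly6/uPAR protein, which enterocytes secrete (difference 0.29, where Ly6a itself varied by 2.03), followed by Phf11a (0.54). Lypd8 was at 6348 to 8284 FPKM in control mice, 374 to 1031 in TAI mice and 153 to 414 in TAI/IVIg mice. The nearest to Anxa1 were Plekha4 (0.19) and the stromal metalloprotease Mmp3 (0.20), and the nearest to Clu were the immunoglobulin constant genes Ighg2b (0.67) and Ighg3 (0.67). The second nearest to Ereg was the ErbB ligand Btc (0.18), after Clec4a1 (0.18). The others were Gm20186 (0.16) and Lcn2 (0.17) for Anxa3, Gm12854 (0.16) and Gm28192 (0.20) for Msln, Fam83e (0.25) and Ly6c1 (0.26) for Areg, Bmp7 (0.13) and Ednrb (0.14) for Nrg1, and Mfsd2a (0.24) and Mir7048 (0.29) for Il33. With a pseudocount of 0.1 in place of 1, 4 of these 18 neighbours were kept, Lypd8, Gm20186, Bmp7 and Mfsd2a. The immunoglobulin genes near Clu were not kept, and its nearest genes were then Cilp (0.48) and Cpxm1 (0.71).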

How the data were processed

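Jejunal RNA of 9 mice, 3 per group, was sequenced, and the groups and replicate numbers come from the labels. The file deposited by the authors holds FPKM per gene for each single mouse, and 0 of its columns were left out here. The submitters' processing notes name FastQC, Trimmomatic, STAR, featureCounts and DESeq2, with mm10 and GRCm38 as builds. The versions and the treatment of strand and of shared reads are not given in the sources used here. All 31685 genes gave whole reads (100% of values, within 0.001 of a whole number), 30590 of them with the exon lengths of GENCODE M21 and 1095 with another length, up to a common factor. The library totals were 16284531 to 18244739 (median 17312593), and the part not found among the genes was at most 0.00098%. Symbols were paired with 31146 identifiers.

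The test was limma 3.58.1 in R 4.3.3 on log2(FPKM + 1) of all 9 mice, with a term per group, a trended empirical Bayes step, genes of at least 1 FPKM in at least 3 mice and Benjamini-Hochberg adjustment over the 13056 genes tested. Fold changes on this scale are understated for low genes. The p-values measure the spread between 3 mice per group. The steps were also run on simulated reads that had the spread of the control mice in every group. The outcome is not reported here, and the run does not cover the wider spread of some members in irradiated mice. Pairing by replicate number was checked from how each mouse deviates from its group. Equally numbered mice of control and TAI gave correlations of 0.27, 0.24 and 0.31, and differently numbered ones -0.34 to 0.15. The largest correlation between groups, 0.41, joined differently numbered mice, control mouse 3 and TAI/IVIg mouse 2, both high in follicle genes. Whether the numbers pair control and TAI mice is therefore not settled, and the test reported has no term for them.

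The members and the gene lists were chosen with earlier results of these data known. All members and all ErbB ligands and receptors are named. Of each other list up to 3 genes per direction were named, those with the largest fold change in TAI against control past the threshold and without overlap between mice, and of the nearest profiles 2 per member. Some genes that this rule names are not reported here, and the counts of their lists include them. The follicle genes, and the choice to give Epcam, Myh11, Wt1, Il1rl1, Fpr2 and Ifng, were chosen after values were seen. Alternatives changed the pseudocount (0.1), the filter (none, or a mean of at least 5 FPKM), the scaling (library medians set equal, or quantile normalization), the mice fitted (only the 6 being compared, or each mouse left out), the trend (none) and the replicate term (as a block). Added after seeing the data were voom on the recovered reads (with library totals or median-ratio sizes), the fit without 3 mice high in follicle genes and the block in the 6 mice compared. Promoter sequences are from RefSeq, which had entries for 3 of the 9 members, and coding stretches from GENCODE M21.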

Additional observations from a re-analysis of the deposited data

How the results depend on the processing

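Depth did not limit the members other than Msln, which had 4 reads in control mouse 2. With library totals, all genes together were shifted in TAI against control (median log2 fold change -0.24, with 1150 genes called higher and 3411 lower). Setting library medians equal moved the median to 0.05 (2159 higher, 1823 lower), and in TAI/IVIg against control the split went from 1183 higher and 4880 lower to 2880 and 1894. The number of members called in TAI against control was 4, and 2 with no filter, where more genes share the adjustment. Leaving out a mouse gave 1 to 4. It was 0 in every alternative for TAI/IVIg against TAI, and 3 to 6 for TAI/IVIg against control. Called genes of the ErbB, other regeneration, YAP target and marker lists numbered 31 in TAI against control, 18 without the 3 mice high in follicle genes and 20 to 35 with a mouse left out. In TAI/IVIg against control they numbered 42, and 23 with the replicate block in the 6 mice compared. Without those 3 mice 1669 genes were called in TAI against control in place of 4561, with fewer mice in the fit. Fewer were also called without control mouse 2 (2614), control mouse 3 (2761) and TAI mouse 1 (2343).

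Uncalled values changed sign as follows, and the cause was not tested. With library medians set equal, quantile normalization and voom median-ratio sizes, Anxa1 in TAI/IVIg against control was 0.22, 0.23 and 0.14, and Btc in TAI against control 0.14, 0.12 and 0.091, with 0.13 without the 3 mice high in follicle genes. Nrg1 in TAI against control was 0.009 with medians equal, and Hbegf -0.12 without those 3 mice. With a mouse left out, TAI against control ran from -0.09 to 0.33 for the median of the members, -0.90 to 1.52 for Clu, -0.47 to 0.006 for Nrg1, -0.20 to 0.40 for Hbegf and -0.37 to 0.14 for Btc. TAI/IVIg against TAI ran from -2.23 to 0.14 for Clu and -0.85 to 0.16 for Il33, and TAI/IVIg against control from -1.96 to 0.59 for Clu and -0.23 to 0.40 for Msln. Of the genes nearest in pattern, 4 of 18 were kept with a pseudocount of 0.1.

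The replicate block left 4 members called in TAI against control and 0 in TAI/IVIg against TAI, where it called 3 genes, and gave 5 in TAI/IVIg against control, adding Nrg1. It changed no other call of a member. TAI/IVIg mice correlated with same-numbered mice of the other groups at -0.30 to 0.20 and with differently numbered ones at -0.38 to 0.41. With 3 mice per group, whether the numbers pair these mice is not settled either. Count-model tests of the recovered reads, edgeR and DESeq2, were planned and, by choice, not run because the deposited unit is FPKM. Voom on the same recovered reads took their place.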
